A study of Mus musculus with 6 samples.

Results

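The genes described here are 42 genes of the endoplasmic reticulum (ER) that fold secreted proteins, remove those that fail to fold, and sense the load of unfolded protein. They were taken by gene symbol from the 24346 rows of the deposited liver table, where all 42 were present, and they were set apart by role into 6 sensors and regulators, 15 chaperones and co-chaperones, 8 oxidoreductases and 13 degradation genes. Liver RNA of 3 control mice and 3 lipophagy-induced mice was compared. All mice were C57BL/6 by the labels, had been fed CDAHFD (a high-fat diet of defined amino acids without choline, which produces steatohepatitis) and had then been returned to normal chow before analysis. Every mouse had received AAV8, an adeno-associated virus of serotype 8, with the thyroxine-binding globulin promoter, which is active in hepatocytes, and a lipid droplet-targeting sequence (LDTS) fused to mCherry. Control mice carried LDTS-LIR mut, in which the LC3-interacting region is mutated, and lipophagy-induced mice carried LDTS-eLIR, whose engineered region recruits the autophagosome to lipid droplets. Both groups therefore carry the droplet-targeting part, and mice without a virus are not among these samples.

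Proteins that enter the secretory pathway are folded in the ER lumen by chaperones of the HSP70 and HSP90 families, by the lectin chaperones calnexin and calreticulin, and by oxidoreductases that make and shuffle disulfide bonds. A chain that does not fold is recognised, passed back through the membrane, ubiquitinated and delivered to the proteasome, which is called ER-associated degradation. The transmembrane proteins ATF6, IRE1 (gene Ern1) and PERK (gene Eif2ak3) sense unfolded chains, and the transcription factors ATF6 and XBP1 raise the genes of folding and degradation in the unfolded protein response. Hepatocytes secrete most plasma proteins and hold abundant ER.

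Values were FPKM (fragments scaled to transcript length and to the number of mapped fragments), and a log2 difference is lipophagy minus control on log2(FPKM + 1), which understates the change of low genes. Tests covered 11493 genes whose mean reached 0.5 FPKM, among them all 42 members, and were made with limma, with p-values adjusted by the Benjamini-Hochberg method. From the steps of low FPKM values the depth was estimated at 0.856 to 1.27 times that of control liver 1 in the other livers. The sum of FPKM was 622696 to 681138 in control livers and 709993 to 782392 in lipophagy livers, so that the groups did not overlap in this sum. Hepatocyte markers summed to 68077 to 75724 FPKM in the controls and to 80001 to 103335 FPKM under lipophagy. Without albumin these sums overlapped, at 32606 to 36565 and 34992 to 39246 FPKM. Of the 12 markers 8 had a log2 difference above 0. At an unadjusted p below 0.05 (limma), 3 were higher, against 11.5% of all tested genes, and 0 were lower, against 7.97%. In bulk tissue, fewer cells of a type and less RNA per cell cannot be told apart. The sources do not say how the 3 livers of a group relate beyond their numbers, so p-values measure the spread between these livers.

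Control liver 1 stood apart from the other control livers for these genes. It had the lowest FPKM of the control livers in 35 of the 42 members, whereas it was lowest in 40.9% of all tested genes. Its share of the mean of the other 2 control livers was 43.8% for Creld2, 51.8% for Manf, 64.0% for Hspa5 and 99.6% for Wfs1, while for Ern1 it was 229%. Among the lipophagy livers, liver 2 was lowest in 25 members, against 31.7% of all tested genes. Differences without control liver 1 are therefore given for the roles and for the members in which they differ from the main value by more than 1.5 times, and for the members with the largest differences.

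The members as a whole were higher in the lipophagy-induced livers, with 41 of 42 above 0 and a median log2 difference of 0.33, against 0.020 over all tested genes. Of the members, 0 passed the adjustment over all tested genes (limma), against 0.0261% of all genes, and the lowest adjusted p was 0.0802, that of Dnajb9. At an unadjusted p below 0.05, 26 members were higher, against 11.5% of all tested genes that were higher, and 0 members were lower, against 7.97%. In 28 members every lipophagy liver lay above every control liver, against 15.4% of all tested genes, and in 0 members every lipophagy liver lay below, against 10.8%. Without control liver 1 the median was 0.24 and 21 members were higher at an unadjusted p below 0.05, with a background of 8.36%. With quantile normalization the median was 0.23, 18 members were higher and 1, Xbp1, was lower at that threshold, with 6.48% of all genes higher, while the split over all genes went from 1327 higher and 916 lower to 745 higher and 899 lower.

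Deviations of log2(FPKM + 1) from the mean of a gene over 6 livers were averaged over the members. This average was -0.42, -0.062 and -0.13 for controls 1, 2 and 3, against 0.26, 0.096 and 0.25 for lipophagy livers 1, 2 and 3. No control liver reached a lipophagy liver, and lipophagy liver 2 was the one nearest to the control livers. Chaperones were spread most, at -0.61, -0.077 and -0.17 in the controls and at 0.40, 0.12 and 0.35 under lipophagy. Sensors were spread least, at -0.047, -0.13 and -0.12 in the controls and at 0.17, 0.038 and 0.085 under lipophagy. The sum of FPKM and the level of albumin were ordered by group as well, and their part in the member differences was not tested.

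**Figure D1:**
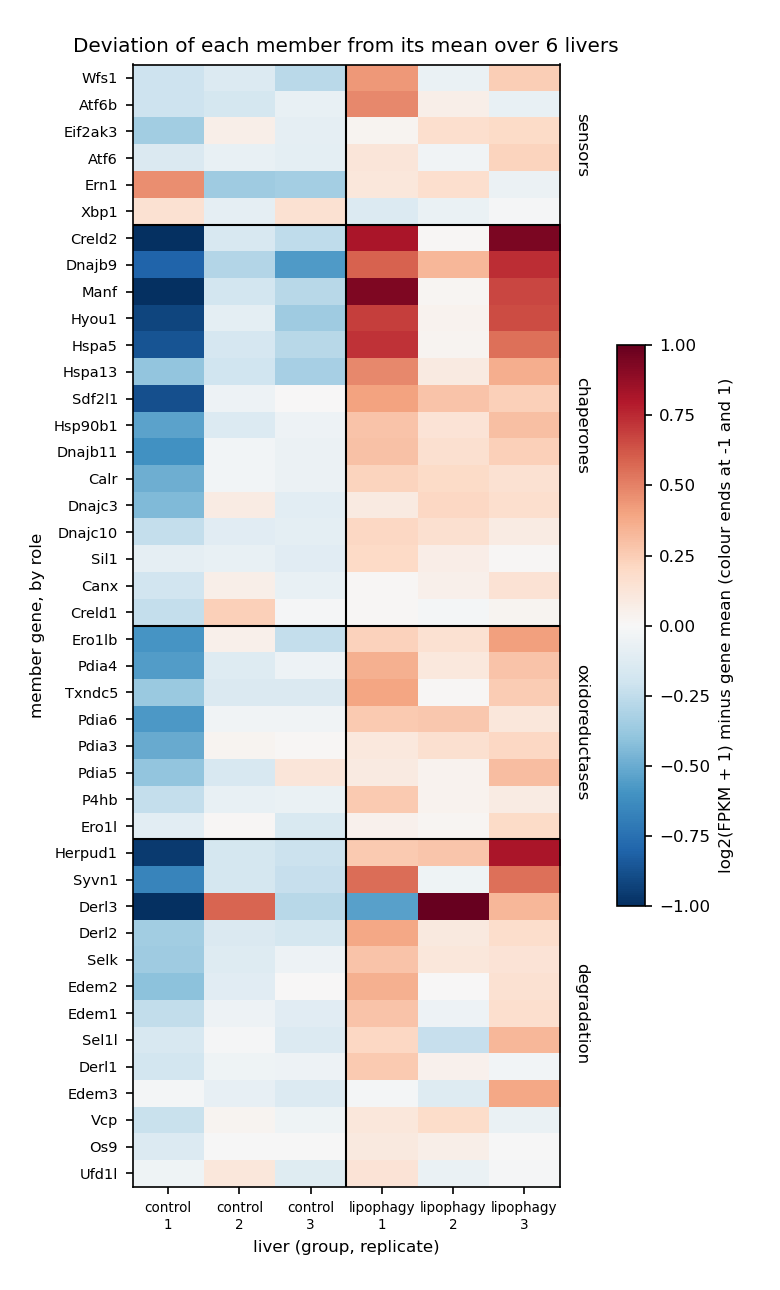
Each row is a member and each column a liver; colour gives log2(FPKM + 1) minus the gene's mean over the 6 livers, with the colour scale ending at -1 and 1. Control liver 1 is the lowest control liver in 35 rows, lipophagy livers 1 and 3 carry most of the high values, and Ern1 and Xbp1 depart from this order.

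The sensors had a median log2 difference of 0.23, and 2 of 6 were higher at an unadjusted p below 0.05, against 11.5% of all tested genes. Their median was 0.24 both without control liver 1 and with quantile normalization. Atf6, the membrane-bound transcription factor that is cut in the Golgi to release its active part, was at 5.99, 6.34 and 6.20 FPKM in the controls and at 7.41, 6.55 and 8.03 FPKM under lipophagy. Its groups did not overlap, with a log2 difference of 0.21 (standard error 0.088, adjusted p = 0.247, limma). The related factor Atf6b was at 6.88, 7.05 and 7.63 FPKM in the controls and at 11.7, 8.51 and 7.63 FPKM under lipophagy. Lipophagy liver 3 was level with control liver 3, so that the groups met (log2 difference 0.31, standard error 0.14, and 0.15 without lipophagy liver 1). Eif2ak3, the kinase PERK that slows translation by phosphorylating eIF2α, was at 3.79, 5.35 and 4.73 FPKM in the controls and at 5.22, 5.83 and 5.95 FPKM under lipophagy, with lipophagy liver 1 inside the control range (0.25, standard error 0.11, and 0.14 without control liver 1).

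Ern1 encodes IRE1, the nuclease that removes an intron from Xbp1 mRNA. It was at 3.25, 1.41 and 1.43 FPKM in the controls and at 2.34, 2.46 and 1.96 FPKM under lipophagy, so that control liver 1 was above every other liver. Its log2 difference was 0.15 (standard error 0.21, 95% interval -0.33 to 0.63), and it was 0.42, 0.011 and 0.019 without control livers 1, 2 and 3 respectively and 0.24 with a pseudocount of 0.1. Xbp1, which encodes the factor made from the spliced mRNA, was the single member with a lower mean of log2(FPKM + 1) in lipophagy livers. It was at 128, 108 and 127 FPKM in the controls and at 104, 110 and 113 FPKM under lipophagy, which overlapped in control liver 2 (log2 difference -0.15, standard error 0.093, 95% interval -0.36 to 0.068). The difference of Xbp1 was -0.23 without control liver 2 and -0.31 with quantile normalization. A value per gene does not separate the spliced from the unspliced mRNA. Wfs1, an ER membrane protein that regulates ATF6, had a low level. It was at 2.24, 2.40 and 2.10 FPKM in the controls and at 4.04, 2.57 and 3.44 FPKM under lipophagy, without overlap (0.41, standard error 0.13, adjusted p = 0.177, limma). At the estimated depth Wfs1 corresponded to 207 to 348 fragments per liver and Ern1 to 227 to 591, taking the longest transcript, and counting error adds to the spread at such numbers.

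Chaperones and co-chaperones had the largest differences, with a median of 0.48, 15 of 15 above 0 and 13 of 15 without overlap between the groups, against 15.4% of all tested genes. With control liver 1 left out the median was 0.33, and with quantile normalization it was 0.30. Hspa5 encodes BiP, the HSP70 of the ER lumen that also holds the sensors inactive. It was at 215, 349 and 322 FPKM in the controls and at 647, 399 and 575 FPKM under lipophagy. Every lipophagy liver was above the control livers, with liver 2 nearest to them (log2 difference 0.87, standard error 0.22, adjusted p = 0.144, limma). Without control liver 1 its difference was 0.66. Hsp90b1, the HSP90 of the lumen (GRP94), was at 283, 373 and 398 FPKM in the controls and at 501, 452 and 505 FPKM under lipophagy, again without overlap (0.48, standard error 0.13).

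Creld2, an ER-resident protein with CXXC motifs, had the largest difference of the members with all livers in the fit. It was at 17.2, 40.5 and 37.8 FPKM in the controls and at 80.3, 45.6 and 87.9 FPKM under lipophagy, so that 2 lipophagy livers stood far above and lipophagy liver 2 lay just above control liver 2. The log2 difference was 1.17 (standard error 0.35, adjusted p = 0.165, limma) and 0.79 without control liver 1, when that of Dnajb9 was larger. Dnajb9, the co-chaperone ERdj4 that recruits BiP to IRE1, had the lowest p of the members. It was at 19.3, 27.8 and 22.9 FPKM in the controls and at 52.03, 43.4 and 57.9 FPKM under lipophagy, and each lipophagy liver stood well clear of the controls. Its log2 difference was 1.10 (standard error 0.15, 95% interval 0.76 to 1.45, adjusted p = 0.0802, limma), and 0.98 both without control liver 1 and with quantile normalization.

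Manf, a secreted and ER-resident protein that stabilises BiP complexes, was at 27.4, 54.5 and 51.1 FPKM in the controls and at 119, 63.0 and 99.3 FPKM under lipophagy (log2 difference 1.08, standard error 0.30). Hyou1 encodes GRP170, a nucleotide exchange factor for BiP, and was at 16.0, 28.9 and 24.0 FPKM in the controls and at 50.8, 31.9 and 49.2 FPKM under lipophagy (0.92, standard error 0.24). Both genes repeat the order of Hspa5, with control liver 1 lowest, lipophagy livers 1 and 3 highest and lipophagy liver 2 just above the controls. The difference without control liver 1 was 0.77 for Manf and 0.69 for Hyou1. Sil1, the other exchange factor for BiP, was at 36.1 ± 0.492 FPKM (SD, n = 3) in the controls and at 41.2 ± 2.86 FPKM (SD, n = 3) under lipophagy, a smaller difference of 0.18.

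Among the remaining chaperones, Hspa13, a microsomal HSP70 relative, was at 5.05 ± 0.424 and 8.36 ± 1.25 FPKM (SD, n = 3 each), with a log2 difference of 0.62 (adjusted p = 0.113, limma). Sdf2l1, which works with ERdj3 against aggregation, had a difference of 0.61, and its partner Dnajb11 (ERdj3) one of 0.46. Calreticulin (Calr), at 525 ± 88.8 and 678 ± 16.1 FPKM (SD, n = 3 each), had a difference of 0.38. Dnajc3 (p58IPK, which also restrains PERK) had one of 0.31, and Dnajc10 (ERdj5, a reductase for degradation) one of 0.30. These 6 genes did not overlap between the groups. With control liver 1 left out the difference was 0.33 for Sdf2l1, 0.27 for Dnajb11, 0.23 for Calr and 0.17 for Dnajc3. The 2 chaperones that did overlap were Canx, the membrane-bound calnexin, at 69.8 ± 6.06 and 76.7 ± 3.68 FPKM (SD, n = 3 each), and Creld1. Creld1 was at 22.7 ± 3.91 and 22.6 ± 0.413 FPKM (SD, n = 3 each), with a difference of 0.011 and a 95% interval from -0.26 to 0.28. Leaving out control liver 1, the difference of Canx went from 0.14 to 0.076 and that of Creld1 to -0.11. With quantile normalization the difference was 0.29 for Hsp90b1, 0.15 for Calr, 0.30 for Dnajb11, 0.17 for Dnajc3, 0.060 for Sil1 and -0.012 for Canx.

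**Figure D2:**
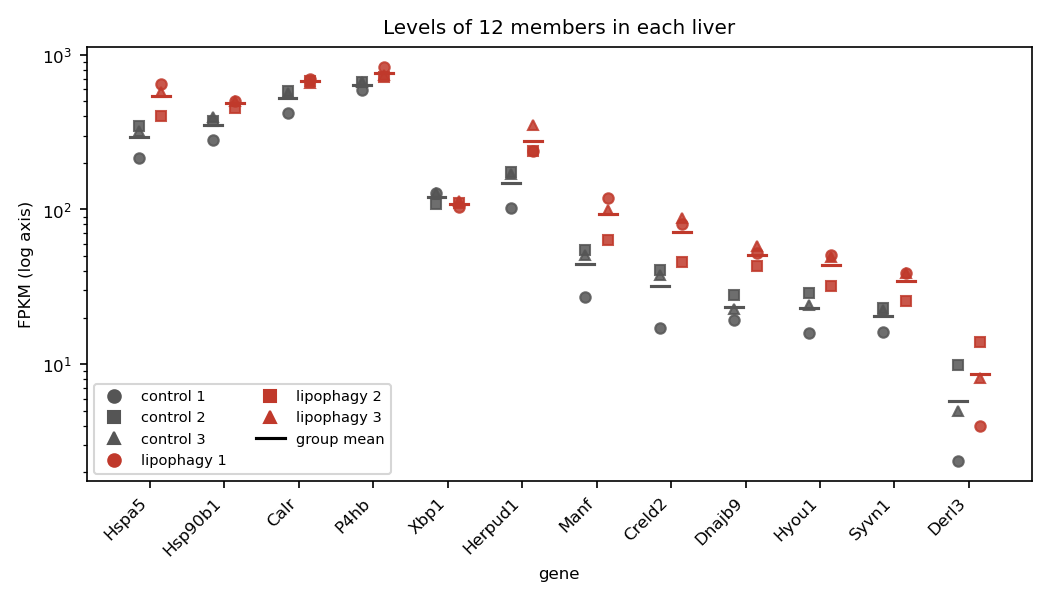
FPKM on a log axis for 12 members, with grey for control and red for lipophagy livers, one symbol for each replicate number and a bar for the group mean. For Hspa5, Manf, Creld2, Hyou1 and Syvn1 the square of lipophagy liver 2 sits just above the controls. Xbp1 overlaps, and so does Derl3, which is highest in the liver numbered 2 and lowest in the liver numbered 1 of each group.

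The oxidoreductases had a median log2 difference of 0.37, with 8 of 8 above 0, 7 of 8 without overlap (15.4% of all tested genes) and 5 of 8 higher at an unadjusted p below 0.05 (11.5% of all tested genes). Without control liver 1 the median was 0.22, and with quantile normalization it was also 0.22. Ero1lb encodes an oxidase that passes electrons from protein disulfide isomerase to oxygen. It was at 9.43, 15.3 and 12.3 FPKM in the controls and at 17.5, 16.5 and 19.9 FPKM under lipophagy, and lipophagy liver 2 lay only slightly above control liver 2 (log2 difference 0.52, standard error 0.16, adjusted p = 0.168, limma). Pdia4 (ERp72) was at 69.9, 94.3 and 99.6 FPKM in the controls and at 132, 111 and 126 FPKM under lipophagy (0.49, standard error 0.14). Txndc5 (ERp46) was at 55.3, 65.0 and 64.9 FPKM in the controls and at 94.4, 72.2 and 85.6 FPKM under lipophagy (0.44, standard error 0.12). Pdia6 (P5) was at 146, 212 and 212 FPKM in the controls and at 261, 262 and 235 FPKM under lipophagy (0.43, standard error 0.15). In all 4 genes control liver 1 was the lowest liver, and the lipophagy livers stood above the control livers. Without it the difference was 0.36 for Ero1lb, 0.34 for Pdia4, 0.36 for Txndc5 and 0.25 for Pdia6.

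P4hb, the classical protein disulfide isomerase, had the highest level of all members per length of transcript, at 640 ± 42.5 FPKM in the controls and at 764 ± 64.5 FPKM under lipophagy (SD, n = 3 each), with a log2 difference of 0.25. Calr, Hsp90b1 and Hspa5 followed in the mean over the 6 livers, with 419 FPKM for Hsp90b1 and 418 FPKM for Hspa5. By group, Hsp90b1 was above Hspa5 in the controls (351 and 295 FPKM) and below it under lipophagy (486 and 540 FPKM). Pdia3 (ERp57, the partner of calnexin and calreticulin) had a difference of 0.31 and Pdia5 one of 0.29, the latter with overlapping livers. The values without control liver 1 were 0.14 for Pdia3 and 0.16 for Pdia5. Quantile normalization gave 0.020 for P4hb, 0.12 for Pdia3, 0.16 for Pdia5, 0.25 for Pdia6 and 0.29 for Txndc5. Ero1l, the oxidase that is known to respond to hypoxia, was low, at 4.07 ± 0.291 and 4.68 ± 0.373 FPKM (SD, n = 3 each), and had a difference of 0.17.

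Degradation genes had a median log2 difference of 0.27, with 13 of 13 above 0, 6 of 13 without overlap (15.4% of all tested genes) and 6 of 13 higher at an unadjusted p below 0.05 (11.5% of all tested genes). The median was 0.19 both without control liver 1 and with quantile normalization. Herpud1, which organises the degradation complex in the membrane, was at 102, 175 and 171 FPKM in the controls and at 238, 240 and 351 FPKM under lipophagy. Its groups did not overlap, and lipophagy liver 3 stood above the other lipophagy livers (log2 difference 0.90, standard error 0.23, adjusted p = 0.144, limma). Syvn1 encodes HRD1, the ubiquitin ligase of that complex, and was at 16.2, 23.1 and 22.2 FPKM in the controls and at 39.0, 25.5 and 38.8 FPKM under lipophagy (0.71, standard error 0.19). Leaving out control liver 1 gave 0.65 for Herpud1 and 0.56 for Syvn1. Its adapter Sel1l was at 12.2, 13.6 and 12.4 FPKM in the controls and at 16.0, 11.5 and 17.5 FPKM under lipophagy, with lipophagy liver 2 the lowest of all 6 livers and a difference of 0.20. Dropping lipophagy liver 2 gave 0.37 for Sel1l, and dropping lipophagy liver 3 gave 0.090.

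The derlins, membrane proteins through which chains are pulled back to the cytosol, differed among themselves. Derl2 was at 24.4, 28.1 and 27.6 FPKM in the controls and at 41.2, 33.6 and 35.5 FPKM under lipophagy, without overlap (log2 difference 0.44, standard error 0.10, adjusted p = 0.134, limma). Derl1 was at 44.8 ± 2.56 and 51.2 ± 5.65 FPKM (SD, n = 3 each), with a difference of 0.19, and of 0.10 without lipophagy liver 1. Derl3 was at 2.36, 9.88 and 5.01 FPKM in the controls and at 3.99, 13.8 and 8.16 FPKM under lipophagy. Livers numbered 2 were the highest of both groups and livers numbered 1 the lowest, so that the spread within each group exceeded the difference between them (0.54, standard error 0.48, 95% interval -0.55 to 1.64). The difference of Derl3 was 0.12 without control liver 1 and 0.16 without lipophagy liver 2, but 0.97 without control liver 2 and 0.95 without lipophagy liver 1. At the estimated depth it corresponded to 73.8 to 370.0 fragments per liver. Derl3 is known to be abundant in secretory cells such as plasma cells and pancreatic acinar cells. The plasma cell markers Jchain and Mzb1 stayed between 0.40 and 0.69 FPKM and between 0.18 and 0.40 FPKM over the 6 livers, Tnfrsf17 was listed at 0, and 15 of 18 pancreatic acinar genes, among them Prss1, Cpa1 and Pnlip, were listed at 0 in every liver. Of the same lists, Sdc1 was at 69.7 to 95.045 FPKM, Cela1 at 10.8 to 16.7 FPKM and Cela2a at 0.734 to 1.36 FPKM.

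Of the mannosidase-like proteins that mark misfolded glycoproteins, Edem2 had a difference of 0.35, Edem1 one of 0.27 and Edem3 one of 0.16. Selk, a selenoprotein of the retrotranslocation complex, was at 89.7 ± 9.62 and 115 ± 7.87 FPKM (SD, n = 3 each), without overlap (0.36, standard error 0.10). Differences were small for the next 3 genes. Os9, a lectin that reads the trimmed glycan, had a difference of 0.095, Vcp, the ATPase p97 that extracts chains from the membrane, one of 0.15, and its cofactor Ufd1l one of 0.038. The groups of Edem2, Edem3, Os9, Vcp and Ufd1l overlapped. Without control liver 1 the difference was 0.23 for Edem2, 0.049 for Os9, 0.082 for Vcp and 0.024 for Ufd1l, and that of Edem3 was 0.0020 without lipophagy liver 3 but 0.26 when lipophagy liver 2 was dropped. For Vcp it was 0.10 without lipophagy liver 2, and for Ufd1l it ran from -0.023 to 0.10 with one liver left out. Quantile normalization gave 0.13 for Sel1l, 0.044 for Derl1, 0.16 for Edem1, 0.20 for Edem2 and 0.20 for Selk, and -0.052, -0.015 and -0.052 for Os9, Vcp and Ufd1l.

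**Figure D3:**
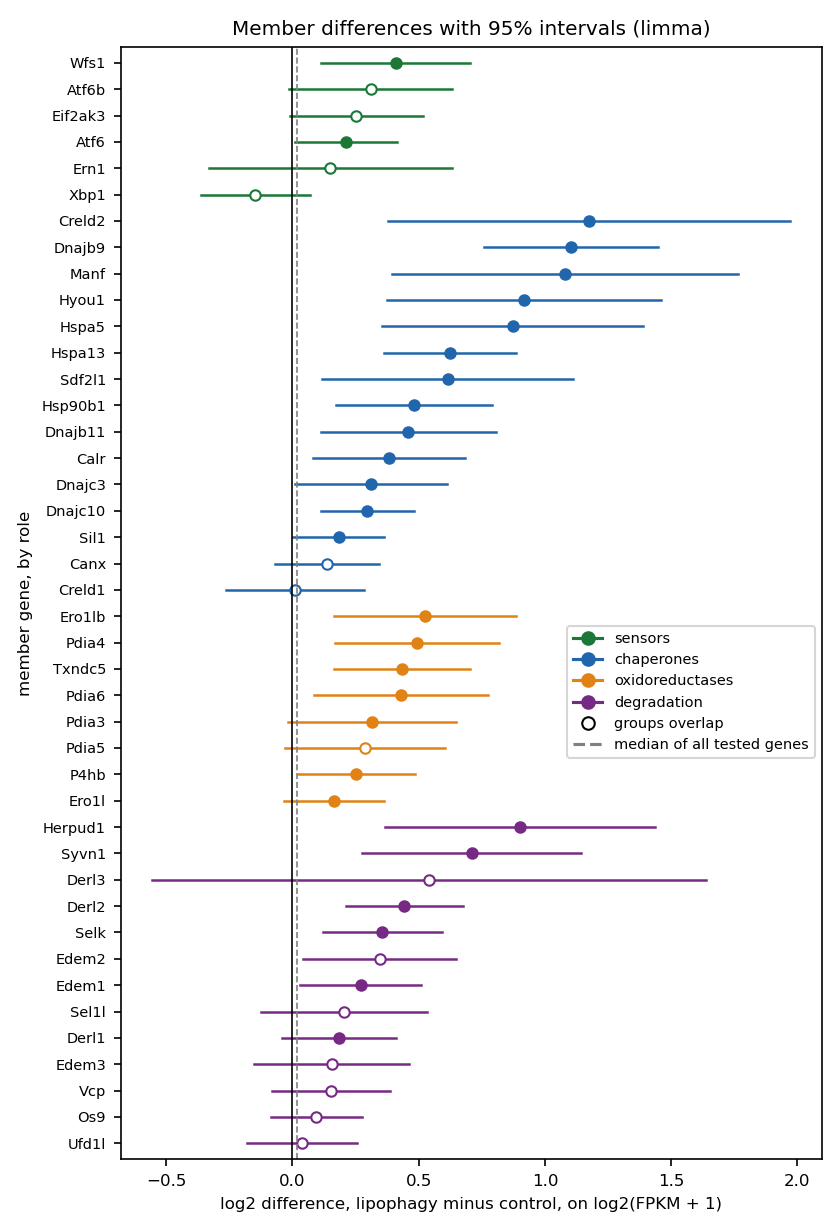
Points give the log2 difference (lipophagy minus control, on log2(FPKM + 1)) and lines its 95% interval from limma, by role; open points mark members whose groups overlap, and the dashed line is the median of all tested genes. The interval of Dnajb9 runs from 0.76 to 1.45, the 5 largest chaperone differences lie at 0.87 or above, and Xbp1 is the single point below 0.

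Related members were compared within each liver by the log2 ratio of their FPKM, which does not depend on scaling between livers. The 7 pairs were chosen after the values were seen, and in each the member with the larger log2 difference was written first. The upward direction of the ratios was thus set by these same values, and the p-values cannot serve as a test of it. In 3 of the 7 pairs the groups did not overlap, with a two-sided exact permutation p of 0.1, the smallest that 3 livers in each group allow (0.233 adjusted over the 7 pairs). Creld2 relative to Creld1 was at -0.14, 0.60 and 0.76 in the controls and at 1.82, 1.04 and 1.93 under lipophagy. Ero1lb relative to Ero1l was at 1.25, 1.80 and 1.68 in the controls and at 1.95, 1.90 and 1.96 under lipophagy. Derl2 relative to Derl1 was at -0.78, -0.72 and -0.74 in the controls and at -0.48, -0.55 and -0.40 under lipophagy. In each of these pairs the ratio was higher in every lipophagy liver than in every control liver. For Atf6b relative to Atf6, Derl3 relative to Derl1, and Edem1 and Edem2 relative to Edem3 the livers overlapped, with exact permutation p between 0.6 and 0.7.

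**Figure D4:**
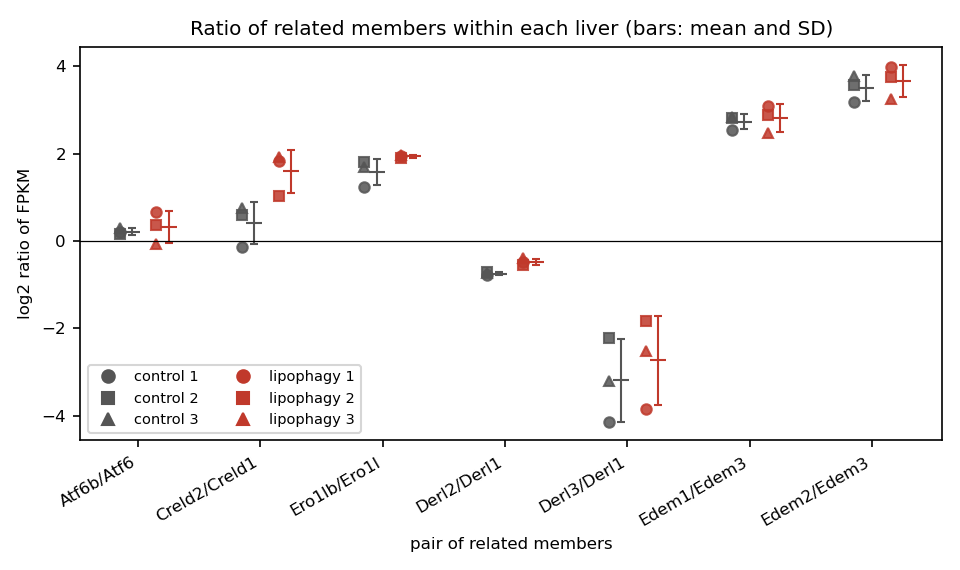
Points give the log2 ratio of FPKM of 2 related members in one liver, and bars the mean and SD of 3 livers. The lipophagy livers lie above the control livers for Creld2/Creld1, Ero1lb/Ero1l and Derl2/Derl1, and overlap with them for the other 4 pairs.

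The unfolded protein response acts on promoters through short elements, so the RefSeq promoter windows (GRCm38.p6, 250 bases before to 50 after each start) were searched on both strands. The elements were ERSE, which is CCAAT followed by 9 bases of any kind and CCACG, where NF-Y binds the first part and ATF6 the second; ERSE-II, which is ATTGG, 1 base of any kind and CCACG; and the core TGACGTGG of the UPRE, to which XBP1 binds. Windows were found for 36 of the 42 members, 4 of them under a newer symbol, and Atf6, Hyou1, Sil1, Hspa13, Manf and Derl1 had no entry. ERSE was found in 10 of these 36 members, 27.8%, against 37 of 27025 genes with a window, 0.137%, the 10 members among them. The members are folding and degradation genes of the kind that the response raises. A higher share of its elements follows from that choice of genes and is no result of these livers. The 10 members were Hspa5, Hsp90b1, Calr, Canx, Dnajc3, Creld2, Pdia6, Ero1lb, Syvn1 and Derl3, and Hsp90b1 held 2 matches. ERSE-II was found in Herpud1 and Dnajb11, against 0.0444% of genes, and the UPRE core in Txndc5 and Vcp, against 0.714%. No member held both ERSE and ERSE-II, which could share their CCACG.

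The sequences below show the element in members with large differences (Hspa5, Creld2, Syvn1, Ero1lb, Herpud1) and in 2 members whose groups overlapped (Canx, Derl3). Capitals mark the fixed letters of the element, and the strand is the one on which the element reads as spelled above.
Hspa5, chr2:34772015-34772053, plus strand: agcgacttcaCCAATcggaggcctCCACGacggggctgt
Creld2, chr15:88819510-88819548, minus strand: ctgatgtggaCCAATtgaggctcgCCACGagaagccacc
Syvn1, chr19:6046522-6046560, plus strand: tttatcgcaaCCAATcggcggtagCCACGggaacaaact
Ero1lb, chr13:12565672-12565710, minus strand: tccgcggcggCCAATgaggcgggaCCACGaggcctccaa
Canx, chr11:50325790-50325828, minus strand: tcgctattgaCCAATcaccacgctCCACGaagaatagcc
Derl3, chr10:75893232-75893270, minus strand: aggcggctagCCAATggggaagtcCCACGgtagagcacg
Herpud1, chr8:94386367-94386397, plus strand: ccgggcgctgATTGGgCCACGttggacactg

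All 11 ERSE matches of members ended between 25 and 193 bases before the RefSeq start, 6 of them on the strand of the gene and 5 on the other, and G and C made up 66.7% to 77.8% of the 9 bases between the parts. The ERSE-II of Herpud1 ended 41 bases before the start, whereas that of Dnajb11 lay 8 to 18 bases after it. The 12 members with ERSE or ERSE-II had log2 differences from 0.14 (Canx) to 1.17 (Creld2), with a median of 0.50, and 10 of them were higher at an unadjusted p below 0.05, against 11.5% of all tested genes. The 24 members with a window and neither element had a median of 0.28, and 11 of them were higher at that threshold. The 6 members without a window, from Sil1 (0.18) to Manf (1.08), were in neither set. Without control liver 1 each of the 12 had a smaller difference, from 0.076 (Canx) to 0.79 (Creld2). Medians of the sets were not taken without that liver. The difference between the members with and without an element was not tested, and both sets hold large and small values. Dnajb9, at 1.10, had neither element in its window, while Canx and Derl3 had one. A match describes letters in a window and not a site in use, and a window without one says nothing about elements elsewhere.

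**Figure D5:**
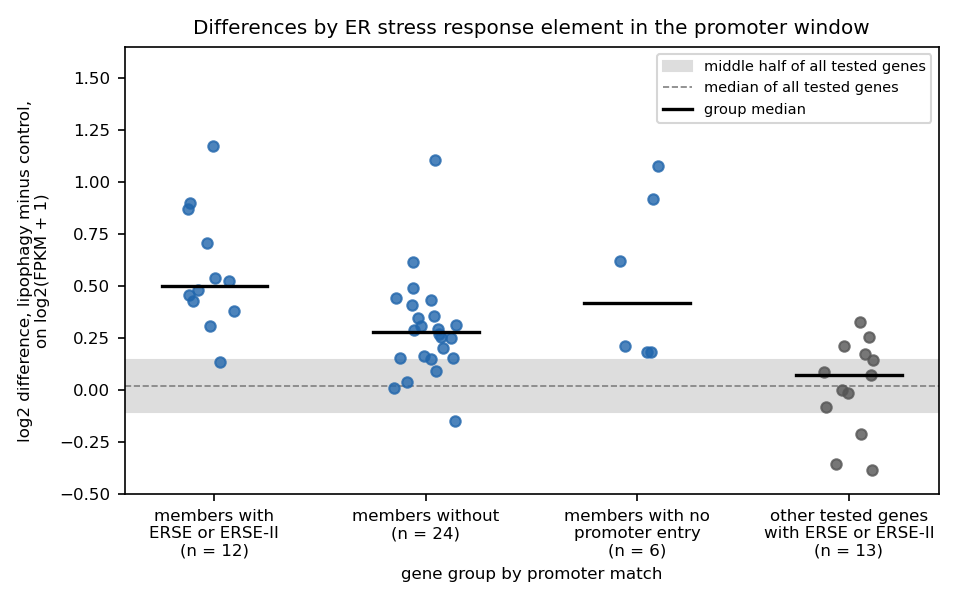
Each point is a gene, placed by its log2 difference (lipophagy minus control, on log2(FPKM + 1)); thick bars are group medians, and the grey band runs from the lower to the upper quartile of all tested genes. Members with an ERSE or ERSE-II have a median of 0.50 and members with neither one of 0.28, while 13 other tested genes that hold such an element have a median of 0.071.

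Other genes of the pathway were counted from lists that hold none of the members, and none of their genes had an adjusted p below 0.05 (limma). At an unadjusted p below 0.05, 11.5% of all tested genes were higher and 7.97% lower, against which the counts below are to be read. Of 31 tested ER folding enzymes outside the members, 25 were above 0 and the median log2 difference was 0.16, with 11 higher and 1 lower at an unadjusted p below 0.05. Lman1, a cargo receptor for glycoproteins, was highest (0.46), and Serpinh1, the chaperone of collagen, was lowest (-0.56). Of 29 other degradation components, 24 were above 0 and the median was 0.082, with 7 higher and 0 lower at that threshold. Vimp, a selenoprotein that binds p97, was highest (0.49) and Erlin2 lowest (-0.16). Signal relays of the response, such as the proteases that cut ATF6 and the KDEL receptors, were evenly split, with 9 of 18 above 0, a median of 0.0023, and 1 higher and 1 lower. The KDEL receptors Kdelr2 (0.35) and Kdelr3 (-0.43) were the ends of that list.

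Beside the members stood 3 neighbouring lists. Genes of signal recognition, the translocon and glycosylation, through which chains enter the ER, had a median of 0.29, with 45 of 49 above 0 and 27 higher at an unadjusted p below 0.05 (11.5% of all tested genes), from Ostc (0.65) to Sec61a2 (-0.21). Genes of the integrated stress response and ATF4 targets had a median of 0.065, with 16 of 29 above 0, 3 higher and 4 lower, counts near the shares of all tested genes, from Gdf15 (1.11) to Fgf21 (-0.83). Cytosolic heat shock proteins had a median of 0.11, with 24 of 33 above 0, 3 higher, near the share of all tested genes, and 0 lower, from Fkbp5 (0.63) to Hspb1 (-0.38). The members' 0.33 was nearest to that of the translocon list, and these medians were not tested against each other.

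Markers of other liver cells were summed in each liver. The summed level of macrophage markers was 488 to 679 FPKM in control and 494 to 622 FPKM in lipophagy livers, most of it Lyz2. Of 11 tested macrophage markers 7 were below 0 with a median log2 difference of -0.21, and 3 were lower without overlap, such as Cd68 (32.4 to 43.0 and 24.4 to 30.1 FPKM) and Csf1r (15.6 to 16.4 and 12.4 to 13.9 FPKM), and 1 was higher without overlap, Vsig4, against 10.8% lower and 15.4% higher among all tested genes. The summed level of stellate cell markers was 231 to 265 and 188 to 255 FPKM, much of it Dcn. Gene by gene, 6 of 12 stellate cell markers were lower under lipophagy without overlap, against 10.8% of all tested genes, with a median log2 difference of -0.23 over the list, and Col1a1 was at 5.91 to 6.98 FPKM in the controls and at 2.63 to 3.99 FPKM under lipophagy. Bile duct markers were at 143 to 254 and 97.0 to 204 FPKM, most of it Spp1. All 8 tested genes of that list were below 0, with a median of -0.44. Sinusoidal endothelial markers were at 37.2 to 46.4 and 40.9 to 64.2 FPKM. Markers of T cells and neutrophils were at 22.5 to 34.2 and 18.6 to 21.4 FPKM, most of it S100a8 and S100a9. Of their 5 tested genes 4 were below 0 and 3 lower without overlap (10.8% of all tested genes). Log2 differences ran from -0.60 (S100a9) to 0.0018 (the T cell gene Cd3g). Plasma cell and B cell markers were at 79.6 to 83.1 and 72.9 to 100 FPKM, most of it Sdc1, which hepatocytes also express. Pancreatic acinar genes were at 11.9 to 13.6 and 12.5 to 17.5 FPKM, most of it Cela1. Among the sums of this paragraph the groups overlapped in all but that of T cells and neutrophils, and their part in the member differences was not tested.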

How the data were processed

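Liver poly(A) RNA of 6 mice was sequenced in paired-end mode. The authors deposited FPKM by gene symbol for every liver. The submitters' processing notes name TopHat2 2.0.13, Bowtie2 2.2.3, SAMtools 0.1.19, Cufflinks 2.2.1 and mm10, without roles, and the annotation is not given in the sources used here. FPKM already include scaling to length and to the total of fragments, and count models were therefore not applied. Dates stood in place of 27 symbols, 2 of them on more than one row.

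From these values log2(FPKM + 1) was computed where the mean reached 0.5 FPKM. The 3 control and 3 lipophagy livers, grouped by title, were compared with limma 3.58.1 in R 4.3.3 (two-sided, variance trend, no covariates, Benjamini-Hochberg, threshold 0.05). The members and lists were chosen with earlier results of these data known, so lists are described by counts and medians. Values in every liver are given for Hspa5, Hsp90b1, Xbp1, Atf6, Ern1, Eif2ak3 and the 4 members of each role with the largest difference. From the other lists the genes at both ends are named. Other genes named were chosen after their values were seen.

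Depth relative to control liver 1 came from the steps of values below 0.3 FPKM, and its scale from lengths of 245 GENCODE genes with one transcript, less 150 bases. Same-numbered livers had correlations of 0.25, 0.23 and -0.057 in their deviations from the group means, so the numbers were not taken as pairs. The scripts were first tested on simulated data. Alternatives were pseudocounts of 0.1 and 0.5, other filters, quantile and median scaling, no trend, a replicate block and each liver left out. Plots were made with matplotlib 3.10.9 in Python 3.11.15.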

Additional observations from a re-analysis of the deposited data

How the results depend on the processing

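Of 588 member values under the alternatives, 578 kept their direction and their side of the threshold. No member passed that threshold in the main fit, so keeping the side asks little. Size could change while direction held, as for P4hb (0.25, and 0.020 with quantile normalization) and Edem3 (0.16, and 0.0020 without lipophagy liver 3). Direction turned in 9 values, all of members near 0. With quantile normalization Canx was at -0.012, Creld1 at -0.096, Os9 at -0.052, Vcp at -0.015 and Ufd1l at -0.052. Creld1 was at -0.11 without control liver 1 and -0.00019 without lipophagy liver 3, and Ufd1l at -0.013 without control liver 3 and -0.023 without lipophagy liver 1. With one liver left out Creld1 reached 0.13 and Ufd1l 0.10 at most. The cause was not tested. Quantile normalization also gave 1 member lower at an unadjusted p below 0.05, Xbp1. Over all genes limma called 3 at the adjusted threshold, 1 with no filter, where more genes are tested, and 2 to 11 with one liver left out. That count was 7 when control liver 2 was dropped, 5 for lipophagy liver 2 and 11 for lipophagy liver 3. With the replicate number as a block the count was 43, among them Dnajb9 (adjusted p = 0.0377, limma). The numbers are not known to mark pairs, and control liver 3 correlated best with lipophagy liver 2 (0.25). With one liver left out, the count of members higher at an unadjusted p below 0.05 was 18 to 25, against 6.95% to 13.98% of all genes, the count without overlap 29 to 31, against 18.4% to 25.8%, and the median 0.24 to 0.41. The median of the sensors was then 0.17 to 0.26, lowest without lipophagy liver 1. Depth limits low genes most, and Derl3 rests on 73.8 to 370.0 estimated fragments per liver. It ran from 2.36 to 9.88 FPKM in the controls and from 3.99 to 13.8 FPKM under lipophagy. The part of depth in this spread was not tested.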

Other observations

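Outside the members, 13 tested genes held ERSE or ERSE-II in their promoter window. Of these 8 were above 0, with a median log2 difference of 0.071, 1 higher and 1 lower at an unadjusted p below 0.05, and adjusted p from 0.16 to 0.998 (limma). Acacb, the acetyl-CoA carboxylase of the outer mitochondrial membrane, was the higher one, at 2.87 ± 0.280 FPKM in the controls and 3.86 ± 0.450 FPKM under lipophagy (SD, n = 3 each), and Spats2l the lower one, at 1.03 ± 0.198 and 0.556 ± 0.162 FPKM (SD, n = 3 each). Alg12, a mannosyltransferase of the ER that builds the glycan precursor, was at 3.82 ± 0.637 and 4.74 ± 0.668 FPKM (SD, n = 3 each), and Krtcap2, a subunit of the oligosaccharyltransferase, at 130.3 ± 18.1 and 151 ± 16.3 FPKM (SD, n = 3 each), both with overlapping livers. The UPRE core was held by 84 other tested genes, of which 61 were above 0, with a median of 0.12, and 22 were higher and 4 lower at an unadjusted p below 0.05, against 11.5% and 7.97% of all tested genes.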
